A study of Mus musculus with 16 samples.

Results

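The homeostatic astrocyte genes were 10 mRNAs, namely Slc1a2, Slc1a3, Aqp4, Gja1, Gjb6, Aldh1l1, Aldoc, Glul, S100b and Sox9, out of 21878 mRNAs in the deposited tables. They were taken by symbol from the count table and from the FPKM table (read fragments scaled to the length of the transcript and to the depth of the library), and all 10 had at least 1074 counts in every library. RNA-seq was performed on cells labelled as microglia, sorted as CD11b+/CD45int from the brains of 16 female wild-type C57BL/6 mice aged 8 weeks, with 1 stranded library of total RNA depleted of ribosomal RNA per mouse. The 8 EAE mice (experimental autoimmune encephalomyelitis, a model of multiple sclerosis) received a MOG peptide in complete Freund's adjuvant with pertussis toxin and were sampled at the peak of disease, and the 8 PBS mice received PBS by the same schedule. The label of the peptide runs from MOG 35 to 55 in EAE 1 to MOG 35 to 62 in EAE 8, the last residue rising by 1 per mouse, whereas the protocol text names a single peptide. Total counts per library were 24587443 to 30244215 in the EAE and 26031889 to 34184576 in the PBS group.

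Astrocytes clear glutamate from the synapse through Slc1a2 (GLT-1) and Slc1a3 (GLAST) and turn it into glutamine with Glul (glutamine synthetase), which neurons take up again. They exchange water at blood vessels through Aqp4, and they share ions and metabolites through gap junctions built from Gja1 (connexin 43) and Gjb6 (connexin 30). Aldh1l1 oxidizes formyl-tetrahydrofolate, Aldoc is the brain aldolase of glycolysis, S100b is a calcium-binding protein, and Sox9 is a transcription factor of the astrocyte lineage. Several of these mRNAs are known to fall when astrocytes become reactive, while Gfap and Vim, which encode intermediate filaments, rise.

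Promoter sequence was at hand for 8 of the 10 genes, in 9 windows (RefSeq, GRCm38.p6), with none for Aqp4 and Sox9. The windows of Glul and Gjb6 are printed because these genes had the smallest p between the groups, and that of Slc1a3 because it was the only one of the 9 that held a TATAAA motif. Each line gives the 250 bases before the annotated start, read 5′ to 3′ on the strand of the gene, with motif matches in capitals (GGGCGG in Glul and Slc1a3, and TATAAA, read on the other strand as TTTATA, in Slc1a3). The Glul window is at chr1:153899679-153899928 on the plus strand, where an annotated exon of Teddm2 runs on the opposite strand. The Gjb6 window is at chr14:57133612-57133861 and the Slc1a3 window at chr15:8710808-8711057, both on the minus strand and outside annotated exons.
Glul: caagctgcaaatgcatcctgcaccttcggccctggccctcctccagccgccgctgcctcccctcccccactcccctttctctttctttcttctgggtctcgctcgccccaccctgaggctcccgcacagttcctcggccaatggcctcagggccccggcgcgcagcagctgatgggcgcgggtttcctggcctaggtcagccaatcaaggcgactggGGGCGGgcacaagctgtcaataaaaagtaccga
Gjb6: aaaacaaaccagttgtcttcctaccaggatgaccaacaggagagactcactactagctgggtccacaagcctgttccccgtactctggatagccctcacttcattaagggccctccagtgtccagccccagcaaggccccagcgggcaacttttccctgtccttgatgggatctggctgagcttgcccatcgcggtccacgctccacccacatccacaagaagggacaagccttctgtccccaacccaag
Slc1a3: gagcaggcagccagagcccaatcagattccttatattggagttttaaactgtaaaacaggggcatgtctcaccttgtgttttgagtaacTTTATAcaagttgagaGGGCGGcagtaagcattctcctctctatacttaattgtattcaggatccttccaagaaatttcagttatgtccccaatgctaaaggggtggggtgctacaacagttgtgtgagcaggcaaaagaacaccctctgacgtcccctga
Both strands were searched for 5 motifs in the 9 windows and in all 32851 promoters of the table. GGGCGG, the GC box, was in the windows of Aldh1l1, Aldoc, Glul and Slc1a3 and in 32.7% of all promoters. TATAAA was in 12.4% of all promoters, and TTGGCA, part of the site of NFI factors, was in a window of Aldoc and in that of S100b and in 12.3% of all promoters. AACAAT, a core of SOX sites found in 9.42% of all promoters, was in 0 of the 9 windows, and so was the whole palindromic NFI site, which was in 0.0365% of all promoters.

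Transcripts of these genes were abundant in the sorted samples. Slc1a2 had the highest count of all mRNAs in each of the 16 libraries, at 0.602% to 0.860% of all counts. Per length, Glul was the highest of the 10 genes and stood between rank 3 and rank 5 of all mRNAs by FPKM, and Slc1a2 between rank 9 and rank 15. By mean FPKM over the 16 libraries the order was Glul (928), Slc1a2 (557), Aldoc (347), Slc1a3 (165), Gja1 (84.5), S100b (77.2), Aldh1l1 (32.8), Gjb6 (26.9), Aqp4 (23.1) and Sox9 (13.4). Neighbours in this order kept it in all 16 libraries except Gja1 above S100b (15 libraries), Aldh1l1 above Gjb6 (14) and Gjb6 above Aqp4 (14). The genes in these 3 pairs of neighbours did not stand apart beyond the spread between libraries.

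The sorted cells were labelled as microglia, and the paper reports a high purity on re-gating after the sort. On average the astrocytic mRNAs nevertheless stood above the microglial ones in these libraries. The source of the mRNAs of other cell types was not tested. Tmem119 and P2ry12, which define microglia, had 8.44 ± 2.57 and 7.53 ± 1.90 FPKM in the EAE group (SD, n = 8) and 7.44 ± 3.12 and 6.08 ± 1.56 FPKM in the PBS group. The mean FPKM of the 10 homeostatic genes was 9.06 to 13.6 times the mean of 17 microglia markers in the EAE libraries (median 11.3) and 11.2 to 17.7 times in the PBS libraries (median 15.04). Against the mean of 12 neuron markers, the mean of the 10 genes was only 1.11 to 2.13 times as high in the EAE libraries (median 1.31). In the PBS libraries it was 1.32 to 1.55 times as high (median 1.42). Among defining markers of other cells, the neuronal Rbfox3 had 20.4 ± 2.12 FPKM and the oligodendrocyte gene Mbp 538 ± 84.6 FPKM in the EAE group. In such bulk samples, fewer cells of a type and less RNA per cell cannot be told apart.

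Between the groups, 9 of the 10 genes had a lower fitted level in EAE and 1, Sox9, a higher one, with a median log2FC (EAE over PBS) of -0.22. None of the 10 passed the adjusted p of 0.05 in edgeR's quasi-likelihood test (0 lower, 0 higher), and none was a DEmRNA. Over all 17885 mRNAs tested, 1.76% were called lower, 0.66% higher and 0.117% DEmRNA (adjusted p under 0.05 and |log2FC| over 1). At an unadjusted p under 0.05, 7 of the 10 were lower and 0 were higher, whereas 9.52% of all mRNAs were lower at that threshold. Abundant mRNAs leaned the same way. Of the 4473 mRNAs at least as abundant as the lowest of the 10 genes, 21.6% were lower at an unadjusted p under 0.05, 5.39% were called lower, 61.2% had a log2FC below 0 and the median log2FC was -0.03.

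**Figure D1:**
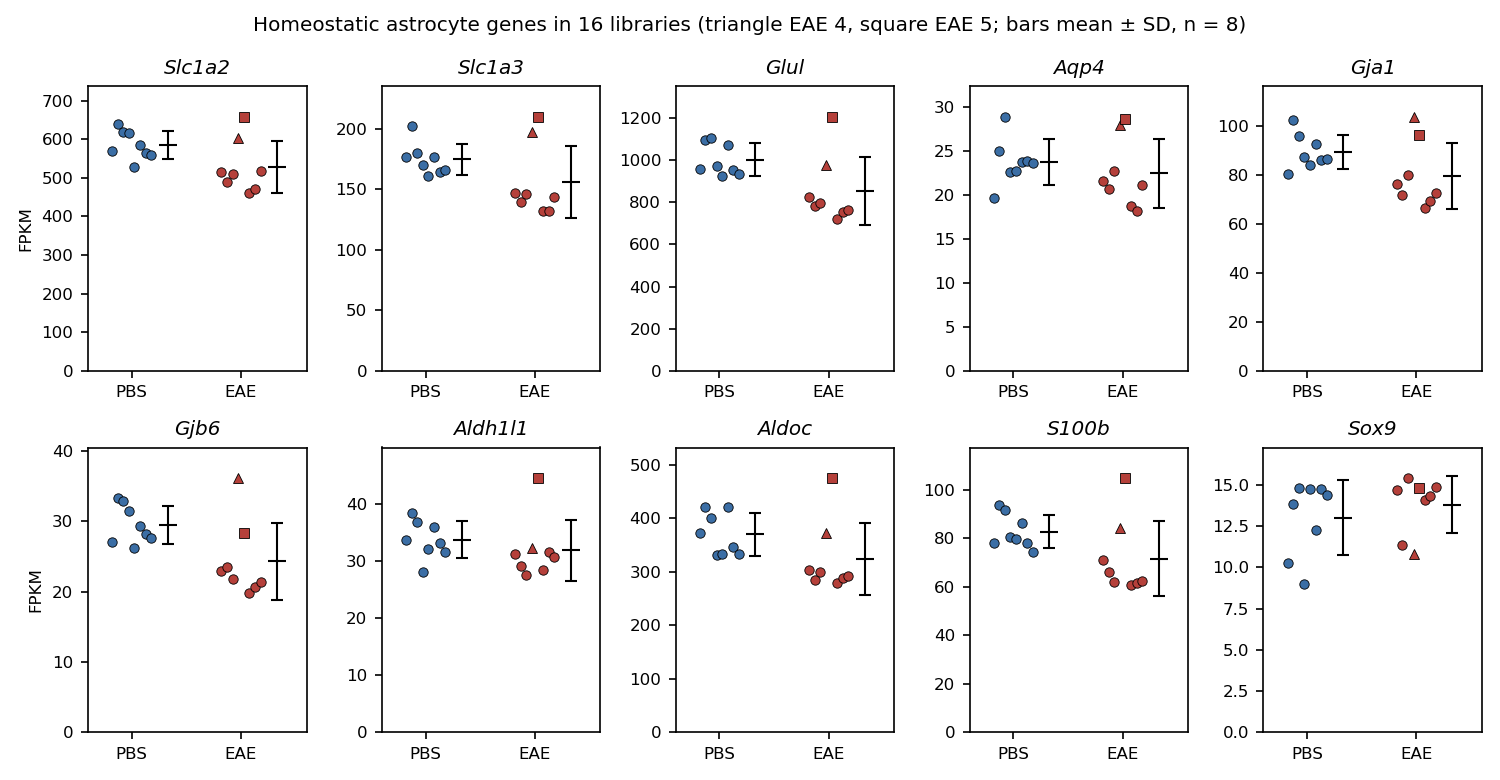
FPKM (y axis, from 0) of the 10 homeostatic astrocyte genes in the 8 PBS and 8 EAE libraries. Each point is 1 mouse, with EAE 4 as a triangle and EAE 5 as a square, and the bars are the mean ± SD; for Slc1a2, Slc1a3, Glul, Gja1, Gjb6, Aldoc and S100b, 6 of 8 EAE points lie below every PBS point and the triangle and the square lie among or above the PBS points.

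For glutamate uptake, Slc1a2 ranged from 461 to 659 FPKM in the EAE group (median 512) and from 529 to 638 FPKM in the PBS group (median 578). In all, 6 EAE libraries lay below every PBS library, whereas EAE 4 (604 FPKM) lay within the PBS range and EAE 5 (659 FPKM) above it. The log2FC was -0.20 (SE 0.066), a fitted level 12.9% lower, with an edgeR p of 0.00638 and an adjusted p of 0.112. The exact two-sided permutation test on FPKM over all 12870 divisions of the libraries gave p = 0.0583.

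The second transporter, Slc1a3, ranged from 132 to 210 FPKM in the EAE group (median 145) and from 161 to 202 FPKM in the PBS group (median 173). Again 6 EAE libraries were below all PBS libraries, and EAE 4 (197 FPKM) and EAE 5 (210 FPKM) were not. Its log2FC was -0.21 (SE 0.087), with an adjusted edgeR p of 0.200 and an exact permutation p of 0.130 on FPKM.

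Glul, which makes glutamine from the glutamate taken up, ranged from 720 to 1207 FPKM in the EAE group (median 789) and from 924 to 1107 FPKM in the PBS group (median 966). EAE 5 (1207 FPKM) was above every PBS library, EAE 4 (976 FPKM) was near the PBS median, and the other 6 EAE libraries were below the lowest PBS library. Glul had the smallest edgeR p of the 10 genes (0.00310), with a log2FC of -0.28 (SE 0.086), a fitted level 17.9% lower and an adjusted p of 0.0785. On FPKM the exact permutation p was 0.0333.

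The water channel Aqp4, on chromosome 18, ranged from 18.1 to 28.6 FPKM in the EAE group (median 21.4) and from 19.6 to 28.9 FPKM in the PBS group (median 23.7). The ranges overlapped for most libraries, with 2 EAE libraries below the lowest PBS library. Its log2FC of -0.13 (SE 0.090) had an adjusted edgeR p of 0.471, and the 95% interval of the log2FC ran from -0.31 to 0.04.

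Of the gap junction genes, Gja1 ranged from 66.7 to 104 FPKM in the EAE group (median 74.4) and from 80.6 to 102 FPKM in the PBS group (median 86.9). The highest EAE library was EAE 4 (104 FPKM), followed by EAE 5 (96.5 FPKM), and the other 6 were below every PBS library. The log2FC was -0.22 (SE 0.082), with an adjusted edgeR p of 0.159 and an exact permutation p of 0.0901 on FPKM.

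Gjb6 had the largest decrease of the 10 genes in the fit over 16 libraries. It ranged from 19.8 to 36.2 FPKM in the EAE group (median 22.4) and from 26.2 to 33.3 FPKM in the PBS group (median 28.8). EAE 4 (36.2 FPKM) exceeded every PBS library, EAE 5 (28.3 FPKM) was within the PBS range, and 6 EAE libraries were below all PBS libraries. The log2FC was -0.33 (SE 0.10), a fitted level 20.6% lower, with an edgeR p of 0.00326, an adjusted p of 0.0806 and an exact permutation p of 0.0319 on FPKM.

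Among the metabolic enzymes, Aldoc ranged from 278 to 475 FPKM in the EAE group (median 296) and from 332 to 421 FPKM in the PBS group (median 359). EAE 5 (475 FPKM) was above and EAE 4 (372 FPKM) within the PBS range, with the other 6 EAE libraries below it. Its log2FC was -0.24 (SE 0.096), with an adjusted edgeR p of 0.191 and an exact permutation p of 0.123 on FPKM.

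Aldh1l1 ranged from 27.5 to 44.5 FPKM in the EAE group (median 30.9) and from 28.1 to 38.4 FPKM in the PBS group (median 33.5). Only EAE 3 lay below the PBS range and only EAE 5 above it. The log2FC was -0.13 (SE 0.084), with an adjusted edgeR p of 0.446 and a 95% interval from -0.30 to 0.03.

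S100b ranged from 60.7 to 105 FPKM in the EAE group (mean 71.6) and from 74.5 to 93.6 FPKM in the PBS group (mean 82.8). The pattern of libraries was that of Glul, with EAE 5 (105 FPKM) above the PBS range, EAE 4 (84.1 FPKM) within it and 6 EAE libraries below it. The log2FC was -0.26 (SE 0.096), with an adjusted edgeR p of 0.155 and an exact permutation p of 0.0847 on FPKM.

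The transcription factor Sox9 ranged from 10.8 to 15.4 FPKM in the EAE group (median 14.5) and from 9.01 to 14.8 FPKM in the PBS group (median 14.1). No EAE library was below the PBS range, and EAE 4, high for the other genes, was the lowest EAE library here (10.8 FPKM). The log2FC was 0.03 (SE 0.10), with an adjusted edgeR p of 0.905 and a 95% interval from -0.17 to 0.23, and its sign turned in some alternative fits (-0.03 without PBS 4, the lowest PBS library, and -0.01 without PBS 1).

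Annotated genes on the opposite strand share exon sequence with Slc1a2, Aqp4, Aldh1l1, Glul (Teddm2) and S100b (Dip2a) in GENCODE M21 on GRCm38. The libraries were stranded, but the strand setting of the counting was not given in the sources used here, so shared reads may have been assigned to either gene or to none. In the count table Teddm2 had 21 to 85 counts per library and Dip2a 4135 to 5162, with adjusted edgeR p of 0.672 and 0.208 between the groups. The 10 genes lie at chr2:102658659-102790784 (Slc1a2, plus strand), chr15:8634124-8710764 (Slc1a3, minus), chr18:15389496-15410982 (Aqp4, minus), chr10:56377330-56402513 (Gja1, plus), chr14:57123303-57133611 (Gjb6, minus), chr6:90486427-90600203 (Aldh1l1, plus), chr11:78322968-78327781 (Aldoc, plus), chr1:153899944-153909723 (Glul, plus), chr10:76253853-76261159 (S100b, plus) and chr11:112782224-112787760 (Sox9, plus).

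The 2 EAE libraries that stood above the others carried much of the spread. EAE 4 and EAE 5 were the 2 highest EAE libraries for all 9 genes other than Sox9, and EAE 5 was the highest of all 8 for 7 of the 10 genes. Summed over the 10 genes, EAE 5 had 2869 FPKM and EAE 4 had 2445 FPKM, the other 6 EAE libraries had 1800 to 2028 FPKM, and the PBS libraries had 2205 to 2666 FPKM. Left out one at a time, each of these libraries changed the count of calls. Without EAE 4, 4 of the 10 genes were called lower (Gjb6, Gja1, Glul and Slc1a2, adjusted p from 0.00184 to 0.0419), where 4.57% of all mRNAs tested were. Without EAE 5, 7 were called lower (Glul, S100b, Aldoc, Slc1a2, Slc1a3, Gjb6 and Aldh1l1, adjusted p from 0.00269 to 0.0488), where 3.42% were. No gene was called without any 1 of the other 14 libraries.

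Values of other cell types also differed in these libraries. EAE 5 had the lowest sum of the 12 neuron markers (1619 FPKM, against 1729 to 2009 in the other EAE and 1958 to 2169 in the PBS libraries) and the highest sum of the 10 oligodendrocyte markers (1300 FPKM, against 925 to 1128 in the other EAE libraries). EAE 4 had the lowest sum of the 12 neutrophil markers in its group (24.2 FPKM, against 28.9 to 66.2 FPKM in the other EAE and 9.91 to 25.4 FPKM in the PBS libraries). It had the highest sums of all 16 libraries for the markers of microglia (385 FPKM), oligodendrocyte precursors (53.8 FPKM), ependymal cells (23.9 FPKM), mesenchymal cells (51.6 FPKM) and the cerebellum (34.9 FPKM), and EAE 5 for endothelial markers (66.8 FPKM). Their part in the levels of the homeostatic genes was not tested.

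A second division of the libraries was visible in the counts. EAE 6, EAE 7, EAE 8, PBS 5, PBS 7 and PBS 8 were more alike within their groups than the rest, with squared differences between replicates 3.02 to 4.08 times the counting variance against 5.74 to 24.5 times in the 50 other pairs of the same group. The labels do not say whether these 6 were handled together, and the set was chosen from the counts. Because it was chosen for small differences between replicates, small standard errors and many calls within it follow in part from the choice. Within these 6 libraries (3 against 3), 9 of the 10 genes were called lower, all but Sox9, with log2FC from -0.13 (Aldh1l1) to -0.44 (Gjb6). In that fit 13.1% of all mRNAs were called lower. Within the other 10 libraries, which include EAE 4 and EAE 5, 0 of the 10 genes were called and 0.0286% of all mRNAs were lower. The log2FC values there were below 0 for the same 9 genes, from -0.05 (Aqp4) to -0.28 (Gjb6), and the standard errors were 0.082 to 0.12 for these 9. With a term for the 6 alike libraries in the fit over all 16, 3 of the 10 genes were called lower (Gjb6 and Glul at an adjusted p of 0.0251 and Slc1a2 at 0.0441), against 2.94% of all mRNAs. DESeq2 called 2 lower (Gjb6 at an adjusted p of 0.0286 and Glul at 0.0308), against 3.37% of all mRNAs.

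**Figure D2:**
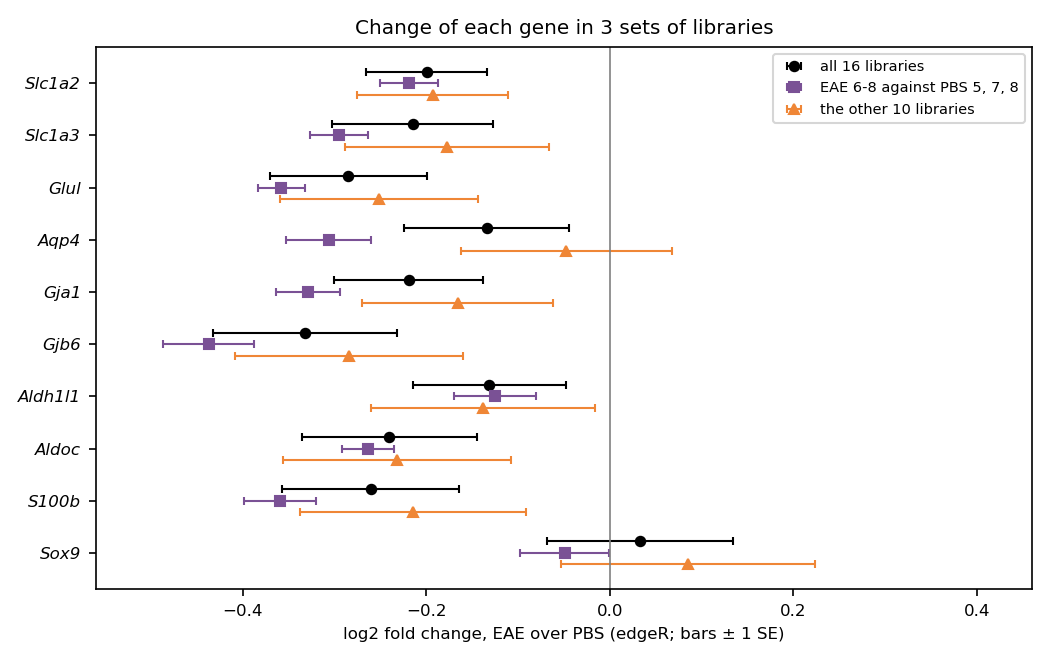
Log2 fold change of EAE over PBS (x axis, edgeR, bars ± 1 SE) for each gene in all 16 libraries (circles), in EAE 6 to 8 against PBS 5, 7 and 8 (squares) and in the other 10 libraries (triangles). Values for the 9 genes other than Sox9 lie below 0 in all 3 sets. The bars are narrowest in the 6 alike libraries, which were chosen for small differences between replicates.

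The genes varied together from mouse to mouse. On log2 CPM (counts scaled to the TMM-normalised library total) after subtraction of the mean of each group, the 36 pairs without Sox9 had Pearson's r from 0.485 to 0.980 (median 0.859) and Spearman's rho from 0.474 to 0.941 over the 16 libraries. Of these pairs, 35 had a Benjamini-Hochberg adjusted permutation p under 0.05 for r and 33 for rho, over the 45 pairs tested. Glul and S100b were the most alike (r = 0.980, rho = 0.903, adjusted p = 0.000112 and 0.000400 by permutation within groups) and Gjb6 and Aldh1l1 the least (r = 0.485, adjusted permutation p = 0.137). Without the 2 libraries farthest from the median of the first gene of a pair, r was 0.425 to 0.942. The genes share library, depth and normalization within each mouse. The share among other pairs of mRNAs was not computed, so these counts do not show a trait particular to these genes. Within the EAE group alone r of these pairs was 0.494 to 0.993, and within the PBS group 0.416 to 0.977.

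No correlation of Sox9 with the others passed at this number of libraries. The 9 pairs of Sox9 had r from -0.30 to 0.31 and rho from -0.10 to 0.40, with 0 of 9 at an adjusted permutation p under 0.05. For these 9 pairs r was -0.60 to 0.13 within the EAE group alone. Within the PBS group it was -0.13 to 0.61, highest with Aqp4. For the other 9 genes the mean deviation from the own group, on the log2 scale, was highest in EAE 5 (0.43), EAE 4 (0.29), PBS 2 (0.20) and PBS 3 (0.16) and lowest in EAE 6 (-0.21). Sox9 deviated most in PBS 4 (-0.49), PBS 1 (-0.34) and EAE 4 (-0.34).

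**Figure D3:**
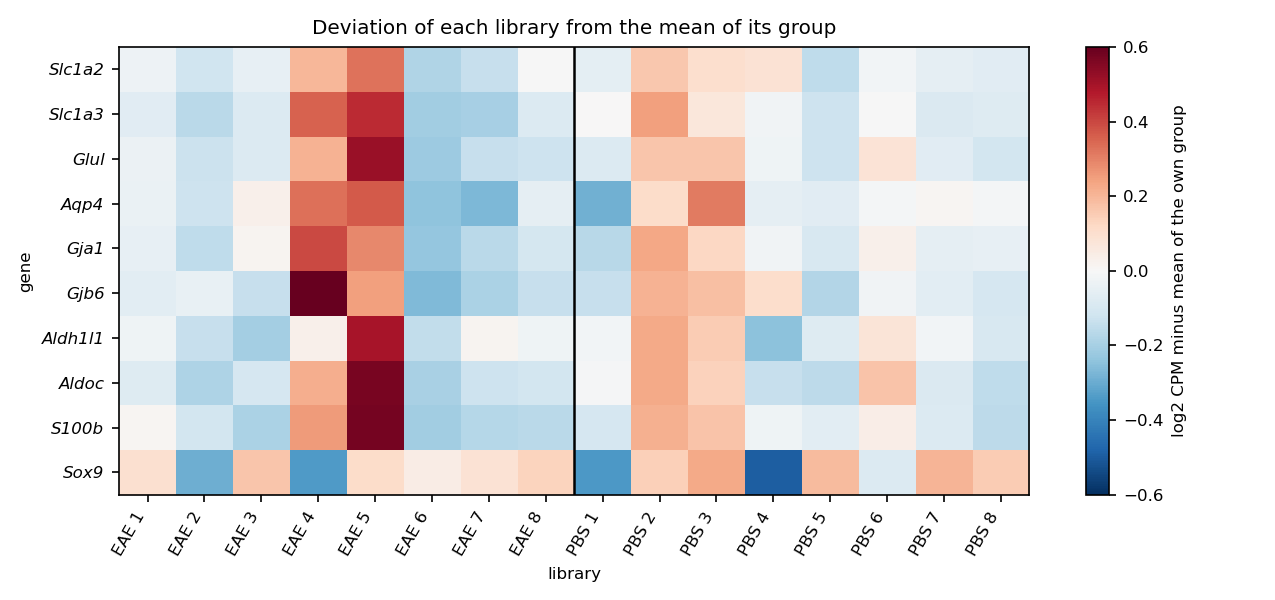
Deviation of log2 CPM from the mean of the own group (color scale, log2 units) for the 10 genes (rows) in the 16 libraries (columns, EAE left of the line and PBS right). Red is above and blue below the group mean. The 9 rows other than Sox9 share the red columns EAE 4, EAE 5, PBS 2 and PBS 3. The row of Sox9 is blue in EAE 4 (-0.34) and red in EAE 5 (0.11), PBS 2 (0.14) and PBS 3 (0.23).

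The mRNAs whose deviations followed the mean of the 10 genes most closely were taken from 14749 mRNAs with a mean CPM of at least 1. Among the 10 most alike were Cpe (r = 0.978), Luzp2 (0.978), Sparcl1 (0.974), Ppp1r3c (0.973), Dbi (0.972), Scd2 (0.969), Apoe (0.968), Rpl37a (0.966) and Plpp3 (0.966), over 16 libraries. Apoe is the main lipid carrier of the brain, and Scd2 is a fatty acid desaturase. All 10 had a fitted log2FC below 0, from -0.17 (Rpl37a) to -0.30 (Apoe), and 1 was called lower, Apoe, at 681 FPKM on average in the EAE and 808 FPKM in the PBS group (adjusted p = 0.0437).

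Ratios of paired genes within a library show whether partners in the same function moved by unequal amounts. Of 7 ratios tested on log2 FPKM with the exact two-sided permutation test, 6 are given here, and 2 of these passed an adjusted p of 0.05, each at 0.0421 over the 7. Adjusted over the 6 alone, both were at an exact p of 0.0541 and did not pass. Gjb6 over Gja1 was 0.273 to 0.348 in the EAE group (median 0.297) and 0.312 to 0.361 in the PBS group (median 0.327), so the connexin 30 transcript was lower relative to that of connexin 43 in EAE (log2 difference -0.12, SE 0.045, exact p = 0.0180). In all, 6 EAE libraries lay below the PBS range, EAE 5 included, and EAE 4 had the highest ratio of its group.

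Aldh1l1 over its mitochondrial paralog Aldh1l2 was 6.92 to 14.1 in the EAE group (median 8.34) and 10.6 to 16.05 in the PBS group (median 12.3), with a log2 difference of -0.48 (SE 0.16, exact p = 0.0117). Aldh1l2 had 3.49 ± 0.52 FPKM in the EAE and 2.66 ± 0.38 FPKM in the PBS group (SD, n = 8), and its own log2FC of 0.34 had an adjusted edgeR p of 0.0646.

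Both calls were sensitive to single libraries. Both held without EAE 4 and without PBS 5, and Aldh1l1 over Aldh1l2 also held without EAE 5. Without any 1 of the other 13 libraries neither passed, with adjusted exact p up to 0.0863. The difference was below 0 for both ratios in the 6 alike libraries (-0.11 and -0.61 in the order given), where the exact p was 0.1, the smallest that 3 against 3 allows. It was also below 0 in the other 10 (-0.13 and -0.39), with an exact p of 0.103 and 0.135.

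The other 4 ratios given here did not pass. Slc1a2 over Slc1a3 had a log2 difference of 0.03 (SE 0.038, adjusted exact p = 0.581), at a mean ratio of 3.41 in the EAE and 3.35 in the PBS group. Aldoc over Aldoa, the aldolase of most tissues, had a difference of -0.14 (SE 0.12, adjusted exact p = 0.361), which passed without EAE 5 (-0.23, adjusted exact p = 0.0178). Aqp4 over Kcnj10, the potassium channel of the endfoot, had a difference of 0.11 (SE 0.055, adjusted exact p = 0.124), and Sox9 over Sox10, which marks oligodendrocytes, of 0.02 (SE 0.19, adjusted exact p = 0.919).

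**Figure D4:**
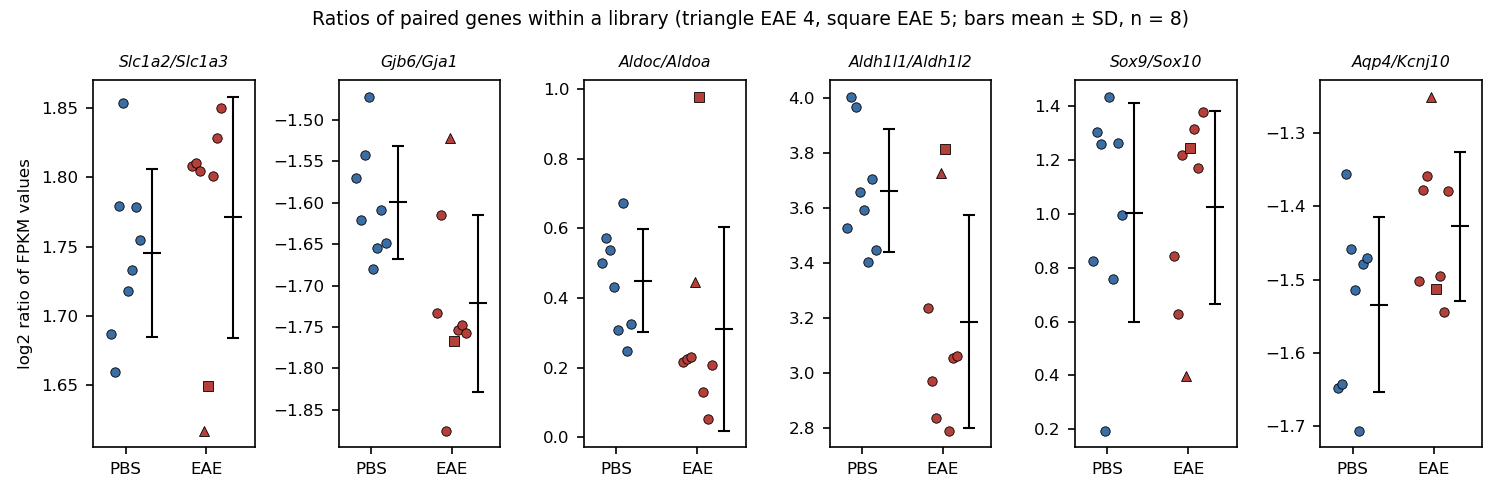
Log2 ratio of the FPKM values of paired genes (y axis, own scale in each panel, not from 0) in the 8 PBS and 8 EAE libraries. Points are mice, with EAE 4 as a triangle and EAE 5 as a square, and bars are the mean ± SD; in Gjb6/Gja1 and Aldh1l1/Aldh1l2, 6 EAE points lie below the PBS points, and the groups overlap in all 6 panels.

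Further genes of astrocyte transport and metabolism were followed in 8 lists, 91 genes in all without the 10 above. In edgeR's test 11 of the 91 were called lower (12.1%) and 0 higher, 75 had a log2FC below 0, and the median log2FC was -0.15, against a median of 0.01 and 47.3% below 0 over all 17885 mRNAs. Of all mRNAs, 1.76% were called lower in the same fit. Among the 4473 mRNAs at least as abundant as the lowest of the 10 genes, 5.39% were called lower and 61.2% had a log2FC below 0. The count for the 91 genes was 21 without EAE 4 and 28 without EAE 5, where 4.57% and 3.42% of all mRNAs tested were called lower, and 4 to 13 without any 1 of the other 14 libraries, where 0.583% to 2.07% were. It was 52 within the 6 alike libraries, against 13.1% of all mRNAs, and 0 within the other 10, against 0.0286%.

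Of 9 genes of transmitter uptake and breakdown, 2 fell, among them Slc6a11 (GAT-3), the astrocytic GABA transporter. It was 104 ± 14.5 FPKM in the EAE and 129 ± 14.0 FPKM in the PBS group (SD, n = 8), with a log2FC of -0.35 (adjusted p = 0.0232). Slc6a11 kept its call in 12 of the 16 fits that left out 1 library. The glycine transporter Slc6a9 had a log2FC of -0.24 and an adjusted edgeR p of 0.102.

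Of 7 ion-buffering genes, 3 fell. They were Slc4a4, a sodium bicarbonate cotransporter (60.8 ± 5.88 FPKM in EAE, 70.0 ± 2.85 FPKM in PBS, log2FC -0.25, adjusted p = 0.0140), Kcnk1, a potassium leak channel (log2FC -0.33, adjusted p = 0.0305), and Atp1b2, a subunit of the sodium pump (log2FC -0.19, adjusted p = 0.0439). Slc4a4 kept its call in all 16 fits that left out 1 library, Kcnk1 in 7 and Atp1b2 in 4.

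In the endfoot complex, which anchors Aqp4 at vessels, 1 of 9 genes fell, Dag1 (dystroglycan), at 20.9 ± 0.87 FPKM in the EAE and 22.7 ± 0.86 FPKM in the PBS group (SD, n = 8). Its log2FC was -0.17 with an adjusted edgeR p of 0.0293, which held in 6 of 16 fits without 1 library. Of the 5 connexin partners none was called, and Gjb2 (connexin 26) had a log2FC of 0.30 (adjusted p = 0.241), with 5 EAE libraries above every PBS library.

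In glycolysis and lactate exchange, 17 of 18 genes had a log2FC below 0 and 2 fell. Ldhb, a subunit of lactate dehydrogenase, was 153 to 186 FPKM in the EAE group (median 160) and 179 to 201 FPKM in the PBS group (median 195), with 6 EAE libraries below all PBS libraries (log2FC -0.26, SE 0.048, adjusted p = 0.00790). Pgam1, a phosphoglycerate mutase, had 43.0 ± 2.32 FPKM in the EAE and 49.9 ± 3.11 FPKM in the PBS group, with a log2FC of -0.26 (adjusted p = 0.00717). Both kept their call without any 1 of the 16 libraries. None of 12 genes of folate and serine metabolism passed, and Gldc of the glycine cleavage system had a log2FC of -0.28 (adjusted p = 0.131).

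Among 12 regulators of the lineage, Fgfr3, a receptor of fibroblast growth factors, was called lower (39.9 ± 5.14 FPKM in EAE, 45.9 ± 2.95 FPKM in PBS, log2FC -0.25, adjusted p = 0.0467). Of 20 further astrocyte genes 18 had a log2FC below 0, and 3 were called lower, Fgfr3 again with Gm2a (log2FC -0.27, adjusted p = 0.0277), a lysosomal activator of ganglioside breakdown, and Agt (log2FC -0.28, adjusted p = 0.0481), the precursor of angiotensin. Gm2a held in 10, Agt in 4 and Fgfr3 in 3 of the 16 fits without 1 library, with adjusted p for Fgfr3 up to 0.115.

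**Figure D5:**
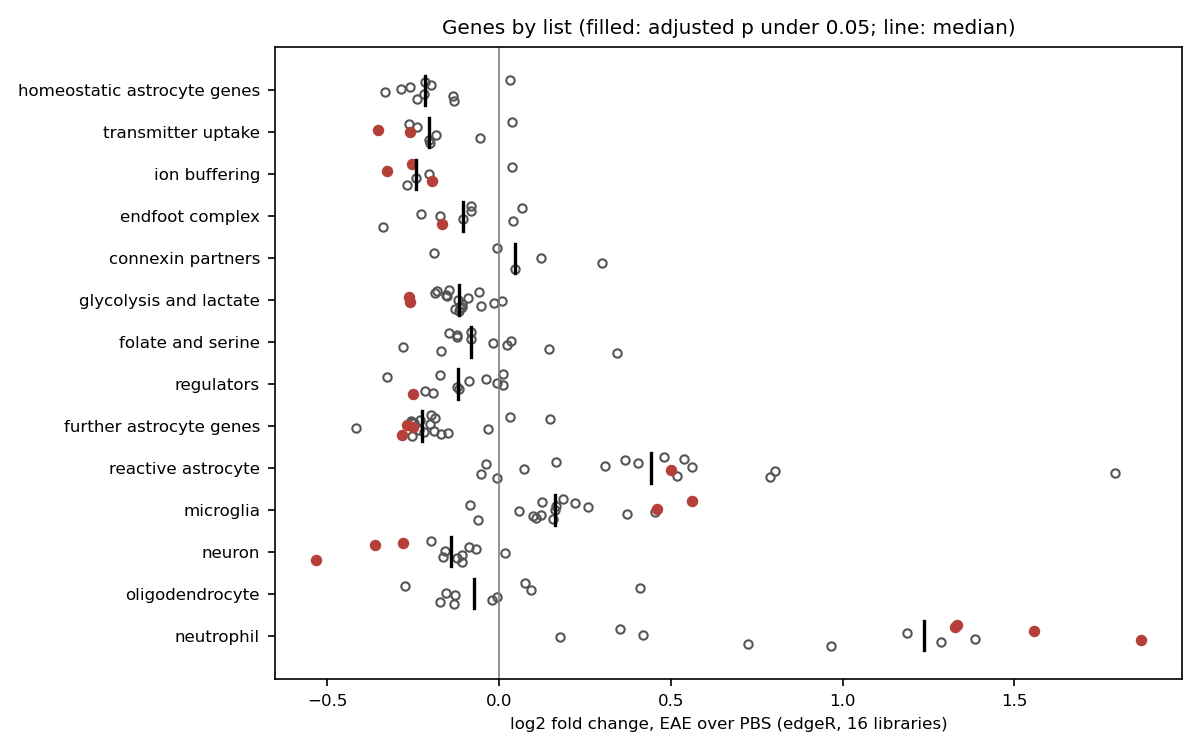
Log2 fold change of EAE over PBS (x axis, edgeR, 16 libraries) of each gene (point) in 14 lists (rows), with the median as a vertical line and filled points for an adjusted p under 0.05. The points of the homeostatic genes are all open, with a median of -0.22, and filled points of the other astrocyte transport and metabolism lists lie left of 0.

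Paralogs of the 10 genes were read as well, and some of them, such as Aldoa and Aldh1l2, are also in the lists above. Of 15 paralogs and partner genes, Slc1a1 (EAAC1), the glutamate transporter of neurons, was called lower, at 32.2 ± 2.79 FPKM in the EAE and 37.6 ± 1.48 FPKM in the PBS group (log2FC -0.27, SE 0.052, adjusted p = 0.00898), and kept its call without any 1 of the 16 libraries. Aqp1, the water channel of the choroid plexus, had a log2FC of -1.64 that did not pass (adjusted p = 0.0757), at 1.10 ± 0.68 FPKM in EAE and 3.29 ± 2.50 FPKM in PBS.

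Genes that rise in reactive astrocytes were read beside these values. Of 16 such genes 13 had a log2FC above 0, and 1 was called higher, Gfap, at 144 ± 16.9 FPKM in the EAE and 98.1 ± 25.5 FPKM in the PBS group (SD, n = 8, log2FC 0.50, adjusted p = 0.0312). Over all mRNAs tested, 0.66% were called higher. For Gfap, 5 EAE libraries lay above every PBS library. Its call held in 8 of the 16 fits without 1 library, with an adjusted edgeR p up to 0.0720. The value depended on the set of libraries, with a log2FC of -0.05 within the 6 alike libraries (adjusted p = 0.419) and 0.87 within the other 10 (adjusted p = 0.00196). The 16 genes summed to 329 to 393 FPKM in the EAE libraries and 154 to 342 FPKM in the PBS libraries, where PBS 5, PBS 7 and PBS 8 had 313 to 342 FPKM. The 6 libraries with the smallest standard errors for the homeostatic genes were thus also those with the smallest difference in Gfap.

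Markers of other cells moved with the groups as well. Of 12 neuron markers 11 had a log2FC below 0, and 3 were called lower, Gad1 (log2FC -0.53, adjusted p = 0.00309), Syp (-0.36, 0.0293) and Syt1 (-0.28, 0.0326). All 12 neutrophil markers had a log2FC above 0 and 4 were called higher, among them Ngp (log2FC 1.56, adjusted p = 0.00304). Of 17 microglia markers 15 had a log2FC above 0, and Itgam (log2FC 0.46, adjusted p = 0.00180) and Trem2 (log2FC 0.56, adjusted p = 0.0282) were called higher. In the lists of 10 oligodendrocyte, 6 oligodendrocyte precursor, 8 endothelial, 6 ependymal and 6 cerebellar markers none was called, and 1 of 7 mesenchymal markers, Vtn, was called lower (log2FC -0.47, adjusted p = 0.0400). Gad1, Ngp and Itgam kept their calls in all 16 fits that left out 1 library, Trem2 in 11, Syp and Syt1 in 9 each and Vtn in 4. The part of these other cell types in the levels of the homeostatic genes was not tested.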

How the data were processed

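Per the labels and methods, reads were aligned to GRCm38 with HISAT2 2.1.0 and counted with HTSeq 0.11.2, and DESeq2 1.22.2 and bcl2fastq are also named. The authors deposited raw counts and FPKM values, both for 21878 mRNAs in 16 libraries. The methods name RefSeq as the annotation of the transcripts, without a release, and the strand setting of the counting was not given in the sources used here. The members and all gene lists were chosen with earlier results of these data known. Counts were tested here with edgeR 4.0.16 (quasi-likelihood, TMM, R 4.3.3) on the 17885 mRNAs with at least 16 counts in total, with Benjamini-Hochberg adjustment over all of them. Alternatives were DESeq2 1.42.0, limma 3.58.1, other scalings and filters, a replicate block, each library left out, and fits by the 6 alike libraries. FPKM values gave levels, exact permutation tests (smallest p 0.000155) and ratios (pseudocount 0.01 FPKM). Correlations used 100000 permutations within groups (smallest p 1e-05). All 10 genes, both genes of each ratio, the paralogs, the 3 genes with the smallest p of each list, called genes of lists with at most 5 calls, and the 10 most alike genes could be named. Some of these genes, and 1 ratio, are not reported here, but they stay in the fits, counts and adjustments. Simulated counts with 200 genes changed by a log2FC of 0.3 gave 39% recovered, and by 1 gave 95%. Each library is 1 mouse. Counting error is small at these depths, so the spread between mice limits the precision.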

Additional observations from a re-analysis of the deposited data

Results flagged for a closer look

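In 32 groups of 8 libraries (the levels of the 10 genes and the 6 ratios given), the gap between the highest or lowest library and its neighbour was set against Dixon's 95% critical value of 0.526 of the range, which chance passes in about 5% of groups. In all, 3 values passed. Slc1a3 in PBS 2 was 202 FPKM, with the next PBS library at 180 FPKM (0.530 of the range). Aldh1l1 in EAE 5 was 44.5 FPKM, with the next EAE library at 32.3 FPKM (0.719 of the range). The Aldoc over Aldoa ratio in EAE 5 was 1.97, with the next EAE library at 1.36 (0.652 of the range). Of these 3 values, 2 came from EAE 5, the library with the highest sum of the homeostatic genes.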

How the results depend on the processing

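The number of homeostatic genes called lower was 0 in edgeR and 2 in DESeq2, 1 with the replicate block (Gjb6, where 2.05% of all mRNAs tested were called lower), 3 with a term for the 6 alike libraries, 9 within those 6 and 0 to 7 without 1 library; 0 were called higher in any fit without 1 library. Further astrocyte genes called lower were 11 in edgeR, 7 with upper-quartile scaling, 3 by limma with either pseudocount, 7 with the replicate block, 52 and 0 within the 6 alike and the other 10 libraries, and 4 to 28 without 1 library. Those called higher were 0 in edgeR, 1 with DESeq2, with the block and with the term, 5 within the 6 alike libraries and 0 to 1 without 1 library. Homeostatic genes with an exact p under 0.05 were 2 on FPKM, 5 on TMM CPM and 0 to 8 without 1 library. Ratios passing were 3 of the 7 tested, 0 with the replicate block, 0 to 3 without 1 library, and 0 when adjusted over the 6 ratios given, a setting chosen after seeing the data. Replicate numbers did not pair the mice throughout. In all, 3 of 8 same-numbered pairs had deviations correlated above 0.1 (range -0.222 to 0.565, highest for EAE 4 with PBS 4). Only 2 EAE libraries, EAE 4 and EAE 8, correlated best with the PBS library of their own number. Signs turned for Sox9 (log2FC -0.049 within the 6 alike libraries and -0.028 to 0.080 without 1 library, below 0 without PBS 1 and without PBS 4), for Gfap (-0.047 within the 6) and for the Sox9 over Sox10 log2 ratio (-0.095 to 0.11 without 1 library). The cause was not tested.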
